A study of Mus musculus with 10 samples.

Results

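Peritoneal macrophages of a conditional knockout were compared with their controls in the absence of IL-4. The comparison took 4 of the 10 libraries of the series, all from mice given saline: 2 knockout basal libraries and 2 wild-type basal libraries, chosen by the labels for genotype and treatment. Controls were C57BL/6 mice homozygous for a floxed allele, called wild type here, and knockouts carried LysM-Cre on the same background, so the floxed allele was common to both and Cre was present in the knockouts alone. LysM-Cre expresses the recombinase from the Lyz2 locus, which is active in myeloid cells and not in lymphocytes or mast cells. Cells were washed out of the peritoneal cavity with 5 ml of PBS 36 hours after the injection and sorted on CD64, ICAM-2 and CD115, and polyadenylated RNA was sequenced. The other 6 libraries, 3 of each genotype from mice given an IL-4 complex, entered the model to estimate the spread and are given here only beside a basal result. Of 22165 identifiers in the table, 11614 passed the filter on low counts and were tested. The labels do not say whether replicates came from separate animals, so p-values measure only the spread between these samples, which may be technical.

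Large peritoneal macrophages are the main resident macrophages of the mouse peritoneum, depend on the transcription factor Gata6 and clear dying cells. They share the cavity with many B cells, which include B-1 cells, and with smaller numbers of mast cells, eosinophils, T cells, dendritic cells and monocyte-derived small macrophages, so RNA of those cells can enter a sorted macrophage sample.

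Counted reads were 10624893 and 12766891 in the wild-type libraries and 8762403 and 10513997 in the knockout libraries. On the log scale the first principal component (27.6% of the variance) parted the 4 basal from the 6 IL-4 libraries, and the second (17.7%) parted the basal genotypes: the knockout libraries lay at 44.1 and 42.4, the wild-type libraries at -47.2 and -46.3, and the IL-4 libraries between -1.69 and 5.34. Defining markers of the labelled cells were detected in all 4 libraries, Fcgr1 at the lowest level. Levels are in CPM, read counts scaled to equal library size by TMM, and none of the following passed the test. Adgre1 (F4/80) stood at 709 and 685 CPM in wild type and 773 and 885 CPM in knockout. Csf1r, the gene of CD115, stood at 289 and 248 against 319 and 267 CPM, and Fcgr1, the gene of CD64, at 37.5 and 34.0 against 27.7 and 21.7 CPM. Icam2 stood at 833 and 1154 against 525 and 714 CPM, Gata6 at 906 and 606 against 566 and 539 CPM, and Timd4, a receptor for phosphatidylserine, at 236 and 281 against 307 and 250 CPM. Both knockout libraries were below both wild-type libraries for Fcgr1, Icam2 and Gata6 and above them for Adgre1. The groups overlapped for Csf1r and Timd4. Of the 11614 genes tested, 5596 showed no overlap.

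Lyz2, the gene that carries Cre and encodes the macrophage lysozyme, was lower in knockout, while its neighbour Lyz1, a lysozyme gene best known from Paneth cells of the gut, was higher. The start of both coding sequences is shown because a read from a stretch without a difference could come from either gene. Bases that differ between the 2 are in capitals in the first 150 bases, 5′ to 3′, from the GENCODE M21 transcripts on GRCm38.
Lyz1: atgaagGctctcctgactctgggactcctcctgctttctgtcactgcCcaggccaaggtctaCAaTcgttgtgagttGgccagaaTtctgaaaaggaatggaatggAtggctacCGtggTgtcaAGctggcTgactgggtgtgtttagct
Lyz2: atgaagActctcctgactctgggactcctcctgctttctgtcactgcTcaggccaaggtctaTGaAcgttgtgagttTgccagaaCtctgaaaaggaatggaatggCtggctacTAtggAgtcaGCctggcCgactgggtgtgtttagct
Of 444 coding bases, 22 differed (95% identity), 14 of them in the part shown, and the longest identical run was 118 bases. Lyz2 (chr10:117277331-117282321, minus strand) stood at 23600 and 21903 CPM in wild type and at 2664 and 9675 CPM in knockout. Both knockout libraries were lower, the first far more so (log2 -1.88 ± 0.42, adjusted p = 0.0249), and the call was lost without wild-type replicate 2 (adjusted p = 0.145) or wild-type replicate 1 (0.124). Lyz1 (chr10:117287797-117292868, minus strand) stood at 380 and 284 CPM in wild type and at 3109 and 1891 CPM in knockout (log2 2.91 ± 0.28, adjusted p = 3.94e-05), with no overlap. Lyz1 made up 1.59% and 1.28% of the summed level of the pair in wild type and 53.9% and 16.3% in knockout. In the IL-4 libraries the share was 1.46% to 1.55% in wild type and 6.98% to 7.46% in knockout. Lyz2 stood there at 5912 to 7046 CPM in wild type and 2845 to 4096 CPM in knockout. The summed level of the pair in the basal libraries was 23980 and 22187 CPM in wild type and 5773 and 11566 CPM in knockout. The Cre insertion lies in one of the genes, and whether it or the sharing of reads moved these values was not tested.

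**Figure D1:**
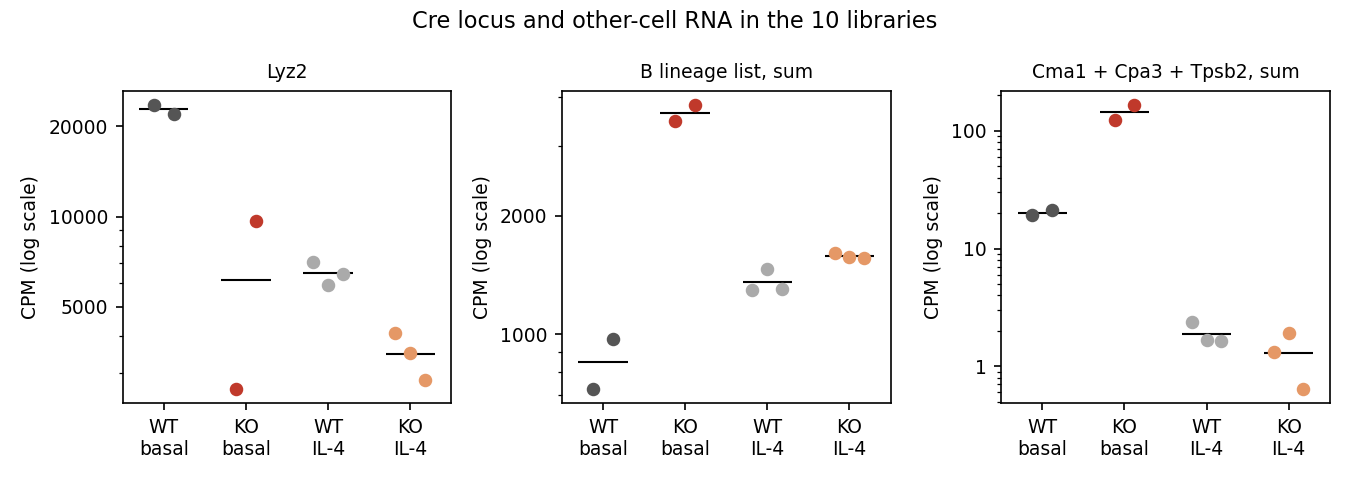
CPM on a log scale for Lyz2, the summed B lineage list and the sum of Cma1, Cpa3 and Tpsb2 in each of the 10 libraries, with a line at each group mean. Basal knockout libraries stood below the basal wild-type libraries for Lyz2 and above all 8 other libraries for the B lineage and mast cell sums.

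In all, 481 genes (4.14% of those tested) passed an adjusted p under 0.05 in edgeR's quasi-likelihood test, 303 higher (2.61%) and 178 lower (1.53%) in knockout. Scaling by library totals alone gave 421 higher and 110 lower, and moved the median log2 change of all genes from -0.02 to 0.13. For all 481 genes the libraries of the groups did not overlap, as for 5596 of the 11614 genes tested. The higher genes included 40 in lists of other cell types and 13 in lists shared by B cells and myeloid cells (MHC class II presentation, and dendritic cell, monocyte and small peritoneal macrophage). No lower gene was in either kind of list. This left 250 higher and 178 lower genes outside those lists, with median log2 changes of 1.96 and -1.46. Without each of the 4 basal libraries in turn, 120 of the 481 calls were kept every time, 109 higher and 11 lower.

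**Figure D2:**
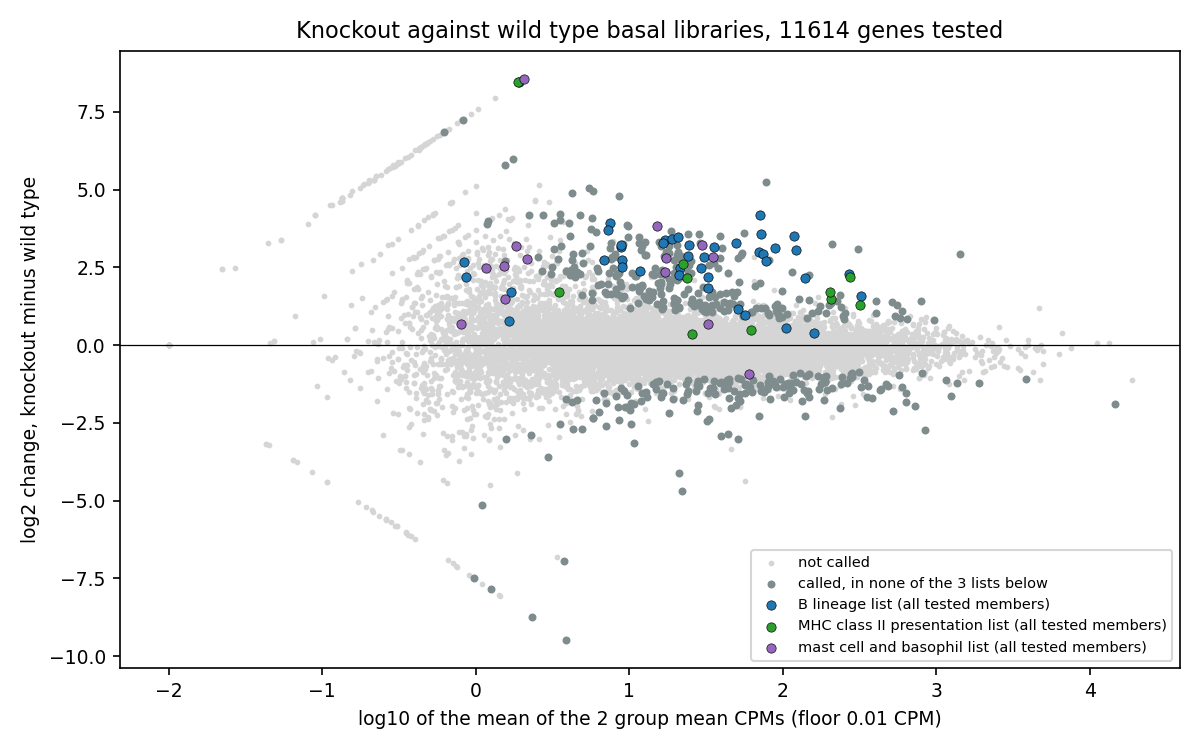
Log2 change (knockout minus wild type) of each of the 11614 genes against the log10 of its mean CPM in the basal libraries, with called genes in grey, the rest in pale grey and 3 gene lists in colour. All 42 B lineage genes lie above 0, with a median of 2.77, and all 10 MHC class II genes, with a median of 1.71, do so too; the points along the outer diagonals are genes with a count of 0 in one group, whose fitted change depends on the prior count and is no bound.

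B lineage genes formed the clearest block of higher RNA in the knockout libraries. Of 42 tested members of the list, 34 rose, 0 fell and 8 did not pass, against 2.61% of all genes called higher, and the median log2 change was 2.77 against -0.02 over all genes. The list summed to 727 and 974 CPM in wild type and 3471 and 3823 CPM in knockout, 4.29 times as much. In the 6 IL-4 libraries the sum was 1297 to 1606 CPM, above wild-type basal and below knockout basal. In bulk RNA, fewer cells of a type and less RNA per cell cannot be told apart, and the same holds for more. The called genes covered the B cell from transcription factors to surface receptors. Among the factors, Pax5, which fixes B cell identity, stood at 5.57 and 9.34 CPM in wild type and 94.5 and 175 CPM in knockout, and Ebf1, which acts with it, at 16.9 and 21.1 against 192 and 242 CPM. Bcl11a, needed for early lymphoid development, stood at 18.4 and 34.1 against 193 and 243 CPM (log2 3.05 ± 0.31, adjusted p = 5.69e-05), and Spib, an ETS factor of B cells, at 2.55 and 4.28 against 29.7 and 47.1 CPM (log2 3.48 ± 0.39, adjusted p = 0.000103). Both knockout libraries were above both wild-type libraries for each of these factors.

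The antigen receptor and its partners moved by similar amounts. Cd79a and Cd79b, the signalling chains of the B cell receptor, stood at 15.5 and 21.5 against 150 and 169 CPM and at 13.4 and 17.8 against 103 and 147 CPM. Both genes and Ms4a1 (CD20; 57.7 and 126 against 414 and 477 CPM) lie outside the naming rule and were added after their values were seen, and all kept their calls without each basal library. Cd22, an inhibitory lectin of B cells, stood at 4.25 and 2.23 CPM in wild type and at 28.1 and 41.0 CPM in knockout (log2 3.42 ± 0.40, adjusted p = 0.000161). Siglecg, a related lectin that restrains B-1 cells, stood at 10.1 and 12.2 against 123 and 143 CPM (log2 3.57 ± 0.30, adjusted p = 1.44e-05). Fcrl5, an Fc receptor-like protein, stood at 1.23 and 0.600 against 11.4 and 16.6 CPM, and Fcmr, the receptor for IgM, at 2.17 and 4.03 against 31.9 and 28.4 CPM. Cxcr5, the receptor that guides B cells to CXCL13, stood at 5.57 and 3.94 against 48.6 and 40.6 CPM (log2 3.23 ± 0.35, adjusted p = 9.4e-05), and Btla, an inhibitory receptor of lymphocytes, at 2.64 and 3.34 against 34.5 and 28.0 CPM. Gpr174, a receptor for lysophosphatidylserine, stood at 1.23 and 0.856 against 12.3 and 14.8 CPM. Fcrla stood at 8.40 and 10.2 against 134 and 46.2 CPM (log2 3.27 ± 0.57, adjusted p = 0.0056) and lost its call without wild-type replicate 2 (adjusted p = 0.0732) or wild-type replicate 1 (0.0675). Without 1 basal library the number of B lineage genes called was 28 to 31, and 25 were called in every such fit.

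One promoter of this group is shown because Ebf1, the factor named for its site, rose with it. The 250 bases before the start of Cd22 (chr7:30879029-30879278, minus strand, RefSeq GRCm38.p6), 5′ to 3′, held the EBF motif (TCCC and GGGA with any 2 bases between them), in capitals, 49 bases before the start.
Cd22: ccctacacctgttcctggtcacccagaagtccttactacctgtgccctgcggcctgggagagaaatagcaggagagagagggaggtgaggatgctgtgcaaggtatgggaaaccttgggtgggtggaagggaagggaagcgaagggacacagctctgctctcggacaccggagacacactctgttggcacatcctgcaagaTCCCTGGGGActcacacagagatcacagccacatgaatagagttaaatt
The motif, searched on both strands, was in 1 of the 26 called B lineage genes with a RefSeq promoter (3.85%) and in 0.914% of 27025 promoters of the same length. The octamer ATGCAAAT was also in 1 of 26, against 1.81% of all promoters. These are letter matches within this window.

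Mast cell genes were higher too, but in fewer members and with a different pattern over the series. Of 14 tested mast cell and basophil genes, 4 rose and 0 fell, against 2.61% of all genes called higher. The median log2 change was 2.64, and summed levels were 156 and 113 CPM in wild type and 231 and 378 CPM in knockout. In wild type most of that sum came from members without a call, whose summed level overlapped between the groups. Cma1, a chymase of connective tissue mast cells, stood at 7.93 and 9.42 CPM in wild type and at 51.4 and 72.3 CPM in knockout (log2 2.83 ± 0.47, adjusted p = 0.0026). Tpsb2, a tryptase whose reads can be shared with the related Tpsab1, stood at 5.29 and 5.91 against 24.8 and 32.9 CPM (log2 2.36 ± 0.38, adjusted p = 0.00181). Cpa3, the mast cell carboxypeptidase, stood at 5.85 and 5.74 against 46.8 and 61.4 CPM (log2 3.22 ± 0.63, adjusted p = 0.0111). Kit, the receptor for stem cell factor on which mast cells depend, stood at 2.55 and 1.46 against 9.19 and 47.4 CPM (log2 3.82 ± 0.77, adjusted p = 0.0131), so the knockout libraries differed widely from each other. In the 6 IL-4 libraries Cma1, Cpa3 and Tpsb2 were each at or below 1.52 CPM, under both basal groups. The call of Kit was lost without knockout replicate 2 (adjusted p = 0.366), wild-type replicate 2 (0.142) or wild-type replicate 1 (0.0605). That of Cpa3 was lost without wild-type replicate 2 (0.101), knockout replicate 2 (0.0899) or wild-type replicate 1 (0.0711). Cma1 and Tpsb2 were called without each basal library. The number of called members fell from 4 to 2 without knockout replicate 2 or either wild-type library.

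Other cell lists gave 1 call or none each, where 2.61% of all genes were called higher. In the T and NK cell list 1 of 18 members rose, Cd2, an adhesion receptor also made by B cells, at 13.6 and 27.0 CPM in wild type and 84.5 and 82.4 CPM in knockout (log2 2.04 ± 0.32, adjusted p = 0.00152). The list summed to 42.2 and 57.9 CPM in wild type and 129 and 116 CPM in knockout, and without Cd2 to 28.6 and 30.9 CPM and to 44.3 and 33.6 CPM. In the eosinophil list 1 of 3 rose, Il5ra, the IL-5 receptor chain of eosinophils and B-1 cells, at 6.99 and 3.34 against 29.5 and 40.3 CPM (log2 2.76 ± 0.51, adjusted p = 0.0056); the call was lost without wild-type replicate 2 (adjusted p = 0.0627). None of 11 neutrophil genes was called (S100a8, at 5.67 and 8.22 against 16.2 and 12.9 CPM, adjusted p = 0.126), and their sum was 264 and 368 CPM in wild type and 277 and 194 CPM in knockout. The fitted change was above 0 for 10 of those 11 genes, with a median of 0.90 that was 0.47 without wild-type replicate 1. None of 4 mesothelial and fibroblast genes was called, and those genes summed to 3.02 and 4.20 against 5.41 and 3.67 CPM. None of 6 erythroid and platelet genes was called, with a sum of 424 and 669 against 927 and 839 CPM nearly all of it Pf4, a platelet chemokine that macrophages also make (417 and 669 against 896 and 824 CPM, adjusted p = 0.185). Hba-a1, a haemoglobin gene with a near-identical copy, stood at 1.23 and 0 against 7.46 and 5.37 CPM.

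MHC class II genes are expressed by B cells, dendritic cells and small macrophages, and at a low level by large peritoneal macrophages. Of 10 members 7 rose, against 2.61% of all genes called higher, with a median log2 change of 1.71. The list summed to 413 and 738 CPM in wild type and to 1501 and 1898 CPM in knockout, and to 1400 to 2210 CPM in the IL-4 libraries. Ciita, the master activator of these genes, stood at 6.61 and 11 CPM in wild type and at 39.5 and 38.5 CPM in knockout (log2 2.14 ± 0.37, adjusted p = 0.0029). Cd74, the invariant chain, stood at 75.7 and 119 against 350 and 545 CPM (log2 2.20 ± 0.29, adjusted p = 0.000425), and H2-Eb1, a class II beta chain, at 67.3 and 122 against 281 and 340 CPM (log2 1.71 ± 0.28, adjusted p = 0.0023). H2-DMb2, which helps to load peptides, stood at 3.59 and 8.99 against 33.3 and 43.4 CPM. Wild-type replicate 2 was above replicate 1 for each of these 4 genes, and the groups did not overlap. The B lineage sum was 4.29 times higher in the same knockout libraries, and its part in the class II levels was not tested.

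The list of dendritic cells, monocytes and small peritoneal macrophages rose in 6 of 23 members, against 2.61% of all genes, with a median log2 change of 0.52 and 0 falls. The 6 included Lyz1, which lies beside the Cre locus and can share reads with Lyz2. Other called members are also made by B cells or other leukocytes, so the count does not assign the RNA to these cells. The median was 0.26 without knockout replicate 2 and 0.33 without wild-type replicate 1. Besides Lyz1, Napsa, an aspartic protease of antigen-presenting cells that B cells also make, stood at 19.0 and 23.6 CPM in wild type and at 99.1 and 185 CPM in knockout (log2 2.74 ± 0.34, adjusted p = 0.000231). Cd209a, a lectin of dendritic cells and monocytes, stood at 7.55 and 7.54 against 33.2 and 25.7 CPM (log2 1.96 ± 0.30, adjusted p = 0.00131), and Plac8, made by several leukocytes, at 28.5 and 75.6 against 232 and 260 CPM (log2 2.24 ± 0.36, adjusted p = 0.00185). The other 2 were Ccr7 and Cx3cr1. Ccr2, the receptor that brings monocytes into tissue, stood at 66.9 and 154 against 139 and 187 CPM and did not pass (adjusted p = 0.364). Retnla, a mark of small macrophages and of IL-4 action, stood at 272 and 295 against 233 and 273 CPM (adjusted p = 0.789).

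The 250 higher genes outside the other-cell and shared lists could be set against the B lineage genes by size alone. The 34 called B lineage genes had log2 changes of 2.16, 2.96 and 3.66 at the tenth, fiftieth and ninetieth percentile. At or above that lower value lay 116 of the 250 genes (46.4%), with a median of 2.31 CPM in wild type and 8 genes at 10 CPM or more. The other 134 lay below it, with a median of 17.8 CPM in wild type and 90 genes at 10 CPM or more. A further description came from the IL-4 libraries, all 6 of which lay between the basal groups for 20 of the 34 called B lineage genes (58.8%). The same order held for 57 of the 116 genes at or above the lower value (49.1%), 25 of the 134 below it (18.7%) and 0 of the 4 mast cell genes. These split points were drawn from these data, so the 2 sets are descriptions and not cell assignments. The sets also differed in the size of the change (median log2 2.90 and 1.38). A wider gap between the basal groups leaves more room for the IL-4 libraries, so the shares cannot tell which cells the genes came from.

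The 12 largest rises outside the lists were picked by size of change, so the rule itself placed them at or above the tenth percentile of the B lineage changes. Most of them lay above the ninetieth. Their levels in wild type were low, which follows in part from the rule, as it needs 10 CPM only in the higher group. Several of the 12 are known from lymphocytes. Kcna3, the voltage-gated potassium channel of lymphocytes, stood at 0.850 and 0.343 CPM in wild type and at 14.9 and 18.4 CPM in knockout (log2 4.80 ± 0.73, adjusted p = 0.00143). Rasgrp1, an activator of Ras in lymphocytes, stood at 4.16 and 12.9 against 136 and 71.3 CPM (log2 3.59 ± 0.48, adjusted p = 0.000649), and Aff3, a nuclear protein prominent in lymphoid cells, at 1.13 and 1.46 against 22.1 and 14.8 CPM (log2 3.82 ± 0.45, adjusted p = 0.000165). Each of these was higher in both knockout libraries than in any of the 6 IL-4 libraries. Others are best known from elsewhere. Cacna1i, a T-type calcium channel, stood at 0.850 and 0.942 against 12.4 and 10.1 CPM, B3gnt5, a glycolipid-building enzyme, at 0.850 and 4.54 against 26.4 and 43.3 CPM, and Rpgrip1, a protein of photoreceptor cilia, at 1.98 and 5.40 against 34.1 and 54.4 CPM. Edaradd, the adaptor of the ectodysplasin receptor, stood at 0 and 0.600 against 8.11 and 13.1 CPM, and Zcchc18 at 0.661 and 0.600 against 8.76 and 13 CPM. These 8 genes kept their calls without each basal library. Pdzd2 (0.0944 and 0.600 against 11.8 and 10.6 CPM) lost its call without wild-type replicate 1 (adjusted p = 0.0706). Ank2, which anchors membrane proteins to the cytoskeleton (0 and 2.40 against 14.7 and 21.4 CPM), lost its call without knockout replicate 2 (adjusted p = 0.121) or knockout replicate 1 (0.0705). Nxpe3 (1.23 and 0.343 against 7.46 and 13.5 CPM) lost its call without wild-type replicate 2 (adjusted p = 0.117) or knockout replicate 2 (0.105). The largest, Tpm3-rs7, is described with its parent gene below.

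Further higher genes in none of the lists included factors of lymphocytes and of macrophages. They were chosen after their values were seen, from those that kept their call without each basal library. Foxp1, a forkhead factor of B cells and of monocyte differentiation, stood at 420 and 449 CPM in wild type and at 1172 and 1159 CPM in knockout (log2 1.42 ± 0.20, adjusted p = 0.000517). Btg1, an antiproliferative gene of resting lymphocytes and other cells, stood at 128 and 109 against 365 and 348 CPM (log2 1.60 ± 0.24, adjusted p = 0.000978). Ets1, a lymphoid transcription factor, stood at 36.5 and 44.3 against 413 and 348 CPM (log2 3.23 ± 0.26, adjusted p = 1.44e-05). Ccnd2, a G1 cyclin that B-1 cells express, stood at 55.6 and 74.0 against 254 and 857 CPM (log2 3.10 ± 0.44, adjusted p = 0.000978), so the knockout libraries differed more from each other for this gene than for Ets1. Tlr9, the receptor for unmethylated DNA in B cells, dendritic cells and macrophages, stood at 8.31 and 11.3 against 47.4 and 88.3 CPM (log2 2.79 ± 0.37, adjusted p = 0.000425). The B lineage sum moved with all of these values, and its part in them was not tested.

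Targets of the glucocorticoid receptor included 3 called rises among 14 tested members, against 2.61% of all genes, 0 falls and a median log2 change of 0.81. The fitted change was above 0 for all 14 members, and for 13 without either knockout library and 12 without wild-type replicate 2. The median was 0.47 without knockout replicate 2. Zbtb16, a transcription factor induced by glucocorticoids and also made by innate-like lymphocytes, stood at 125 and 122 CPM in wild type and at 331 and 328 CPM in knockout (log2 1.41 ± 0.22, adjusted p = 0.00175). Fkbp5, a co-chaperone of the glucocorticoid receptor, stood at 1.61 and 6.08 against 19.5 and 41.9 CPM (log2 2.99 ± 0.49, adjusted p = 0.0026). Klf9, another induced factor, stood at 292 and 271 against 509 and 971 CPM (log2 1.39 ± 0.29, adjusted p = 0.0121), but its call was lost without knockout replicate 2 (adjusted p = 0.19) or wild-type replicate 2 (0.0842). Tsc22d3, the gene of GILZ, stood at 69.1 and 32.2 against 107 and 100 CPM and did not pass (adjusted p = 0.0953), and Per1, a clock gene that glucocorticoids induce, at 5.76 and 6.59 against 7.35 and 12.3 CPM (adjusted p = 0.302). Immediate early genes, which also answer to handling of cells, rose in 2 of 27 members (7.41%), against 2.61% of all genes. Any part of handling in these values was not tested. Jund stood at 78.8 and 80.2 against 237 and 198 CPM (adjusted p = 0.00858) and Jun at 116 and 88.0 against 205 and 209 CPM (adjusted p = 0.0261). Both lost their calls without knockout replicate 1 (adjusted p = 0.0705 for Jund and 0.113 for Jun) or wild-type replicate 2 (0.0553 and 0.205), and Jun also without knockout replicate 2 (0.121).

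**Figure D3:**
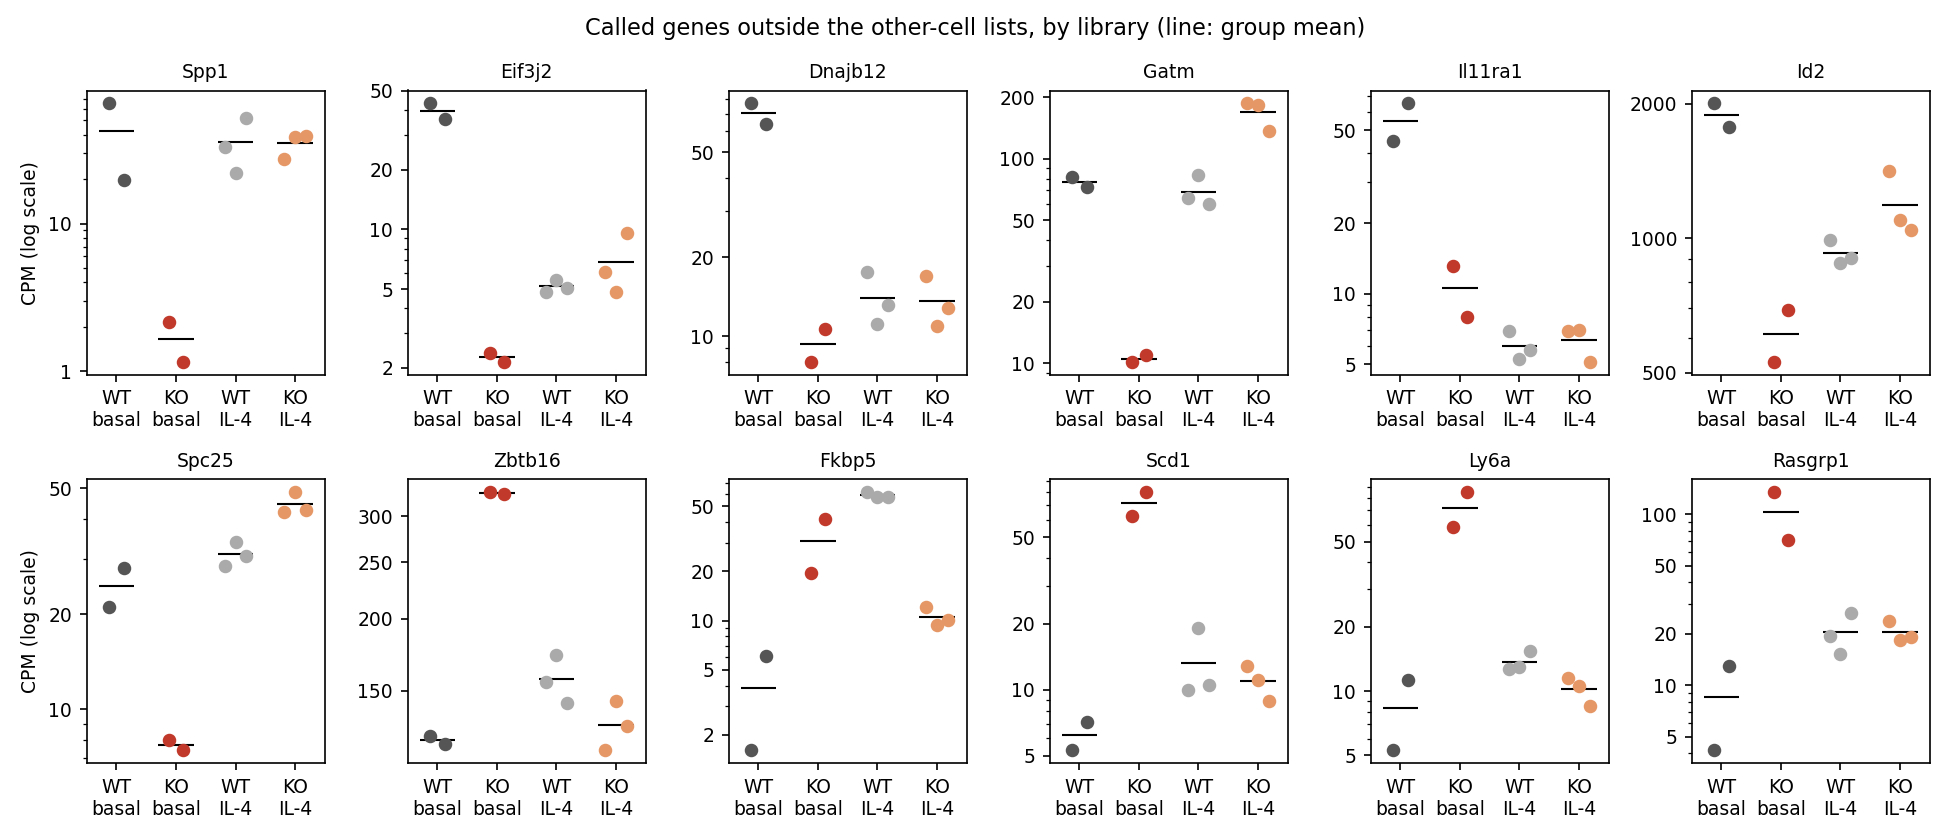
CPM on a log scale in each of the 10 libraries for 12 called genes outside the other-cell lists, with a line at each group mean. For Spp1, Dnajb12, Gatm, Id2 and Spc25 the basal knockout libraries are the lowest of all 10, and for Zbtb16, Scd1, Ly6a and Rasgrp1 the highest, while Il11ra1 was high in the wild-type basal libraries and low in the other 8.

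The largest falls outside the lists belonged to secreted, surface and metabolic proteins of macrophages and to gene copies. Spp1, the gene of osteopontin, a secreted matrix protein of activated macrophages, stood at 65.2 and 19.6 CPM in wild type and at 2.16 and 1.16 CPM in knockout (log2 -4.68 ± 0.62, adjusted p = 0.00069). The 6 IL-4 libraries held 22.1 to 52.2 CPM, so the knockout basal libraries were the lowest of all. Gatm, the enzyme that opens creatine synthesis from arginine and glycine, stood at 81.2 and 72.7 against 10.2 and 10.9 CPM (log2 -2.87 ± 0.28, adjusted p = 4.3e-05). After IL-4 the knockout libraries were instead the highest for Gatm, at 137 to 186 CPM against 59.9 to 83.0 CPM in wild type, and the difference between the genotype effects passed the test (interaction log2 4.15, adjusted p = 4.38e-05), as it did for 2.81% of all genes. Dnajb12, a co-chaperone of the endoplasmic reticulum membrane, stood at 76.7 and 63.9 against 8.0 and 10.6 CPM (log2 -2.91 ± 0.33, adjusted p = 0.000156), and the IL-4 libraries lay at 11 to 17.6 CPM. Il11ra1, the IL-11 receptor chain, whose reads can be shared with the near-identical Il11ra2, stood at 44.9 and 65.2 against 13.2 and 7.96 CPM (log2 -2.38 ± 0.34, adjusted p = 0.000757). These 4 genes kept their calls without each basal library. Id2, an inhibitor of helix-loop-helix factors, was the most abundant gene to do so and was picked after its values were seen: it stood at 2004 and 1772 CPM in wild type and at 530 and 692 CPM in knockout (log2 -1.63 ± 0.23, adjusted p = 0.000604).

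Other large falls lost their call in at least 1 of the fits without a basal library. Such a fit leaves 1 library in a group, so a lost call does not show that the fall came from 1 library. Fabp5, a fatty acid-binding protein of macrophages, stood at 1645 and 1283 CPM in wild type and at 197 and 245 CPM in knockout (log2 -2.73 ± 0.54, adjusted p = 0.0148), with no overlap, but its call was lost without any 1 of the 4 basal libraries (adjusted p = 0.169 and 0.121 without knockout replicates 1 and 2, 0.0935 and 0.0827 without wild-type replicates 1 and 2). Clec5a, a lectin receptor of myeloid cells, stood at 133 and 48.3 against 12.3 and 10.02 CPM (log2 -3.02 ± 0.65, adjusted p = 0.023), and lost its call without knockout replicate 2 (adjusted p = 0.199), knockout replicate 1 (0.162) or wild-type replicate 1 (0.112). Slc4a4, a sodium bicarbonate transporter, stood at 29.7 and 9.16 against 2.16 and 2.15 CPM, with wild-type replicate 1 well above the rest, and lost its call without that library (adjusted p = 0.232), knockout replicate 2 (0.12) or knockout replicate 1 (0.119). Cav1, the caveolar coat protein, stood at 45.7 and 62.9 against 5.95 and 14.0 CPM (log2 -2.43 ± 0.51, adjusted p = 0.0154), and lost its call without knockout replicate 1 (adjusted p = 0.142) or wild-type replicate 2 (0.0905). Orm3, an acute-phase gene with close copies, stood at 4.91 and 19.4 against 1.62 and 2.33 CPM, and lost its call without wild-type replicate 2 (adjusted p = 0.431), knockout replicate 1 (0.164) or knockout replicate 2 (0.0933). Over all 178 falls, wild-type replicate 2 was above wild-type replicate 1 for 111 genes (62.4%), against 50.1% of all genes tested.

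A pair of the largest changes belonged to copies of other genes. Tpm3-rs7, a tropomyosin-related copy, stood at 1.89 and 6.00 CPM in wild type and at 185 and 119 CPM in knockout (log2 5.26 ± 0.46, adjusted p = 2.83e-05). Of its sequence in 50-base windows, 69.4% also occurred in Tpm3, a tropomyosin of actin filaments. Tpm3-rs7 was 0.206% and 1.0% of the summed pair in wild type, 34.2% and 22.6% in knockout and 6.75% to 7.95% in the IL-4 libraries, while the sum was 915 and 597 CPM in wild type and 541 and 529 CPM in knockout. Eif3j2, a copy of the translation factor gene Eif3j1, stood at 43.2 and 36.0 against 2.38 and 2.15 CPM (log2 -4.13 ± 0.40, adjusted p = 3.94e-05), and shared 90.8% of its windows with Eif3j1. Its share of the pair was 48.3% and 32.1% in wild type, 2.15% and 2.26% in knockout and 4.62% to 11.8% in the IL-4 libraries. The sum of that pair was 89.5 and 112 CPM in wild type and 111 and 95.0 CPM in knockout, so the summed levels overlapped where the copies did not. The same check gave 15.4% of Lyz2, 16.1% of Lyz1 and 23.2% of Tpm3, so most windows of these genes were their own. Tpm3-rs7 and Eif3j2 are reported as uncertain, since the counting could assign reads from shared windows to either gene.

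**Figure D4:**
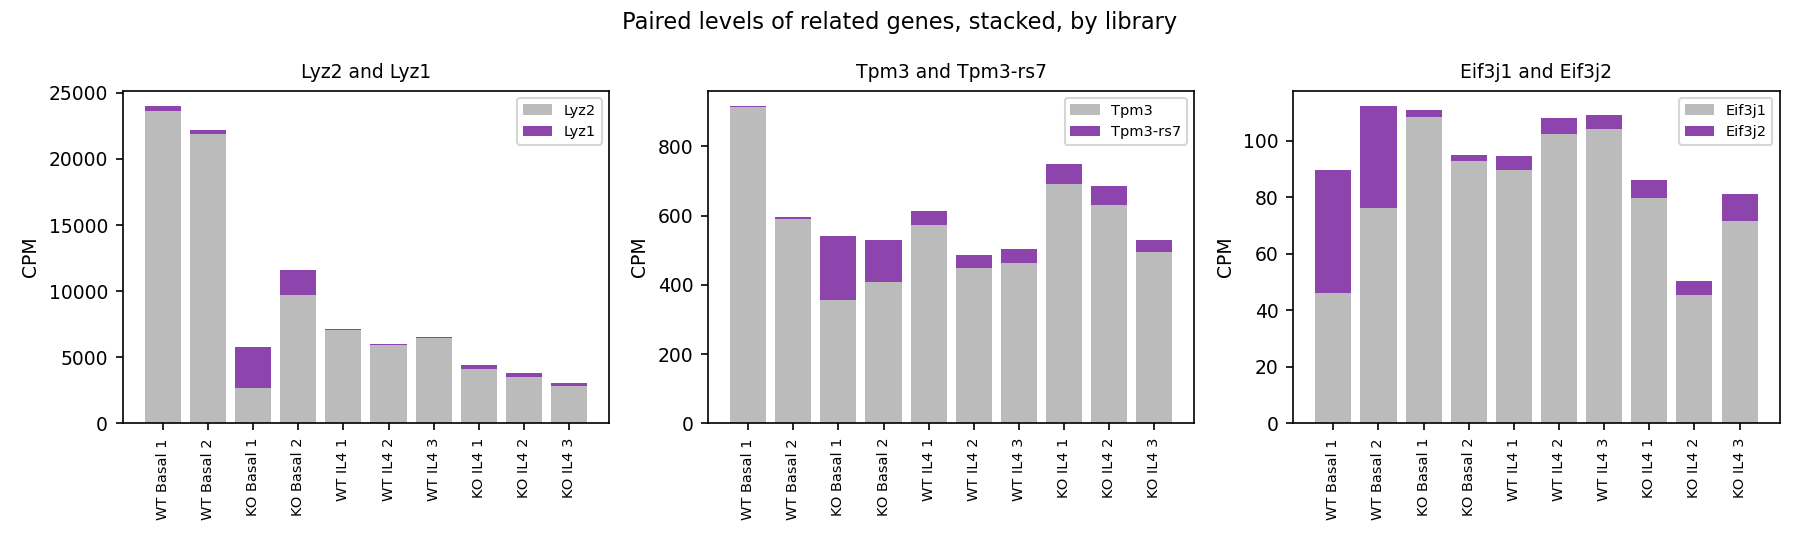
Stacked CPM of 3 pairs of related genes that share sequence in each of the 10 libraries, the copy in purple on its partner in grey, on axes that start at 0. In the knockout basal libraries Lyz1 and Tpm3-rs7 take a larger share and Eif3j2 a smaller one than in the wild-type basal libraries, and the summed Eif3j1 and Eif3j2 levels of the basal groups overlap.

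The macrophage lists gave smaller median changes than the B lineage, mast cell and MHC class II lists. In the large peritoneal macrophage list 1 of 37 members rose and 3 fell. These were 10.8% of the members, against 4.14% of all genes called. The median log2 change was -0.18 (-0.07 without knockout replicate 2 and 0.00 without wild-type replicate 1). Summed levels were 37948 and 31199 CPM in wild type and 37275 and 31272 CPM in knockout. Cd93, a surface lectin of phagocytes, stood at 425 and 340 CPM in wild type and at 852 and 769 CPM in knockout (log2 1.08 ± 0.21, adjusted p = 0.00714). F10, clotting factor X, which these macrophages make, stood at 1369 and 614 against 326 and 230 CPM (log2 -1.84 ± 0.37, adjusted p = 0.012). Gbp2b, an interferon-inducible GTPase, stood at 561 and 715 against 215 and 261 CPM (adjusted p = 0.0307), and Serpinb2, an inhibitor of plasminogen activators, at 789 and 595 against 296 and 263 CPM (adjusted p = 0.0403). The highest adjusted p without 1 basal library was 0.08 for Cd93 (without wild-type replicate 2), 0.127 for F10 (knockout replicate 2), 0.224 for Gbp2b (knockout replicate 1) and 0.228 for Serpinb2 (knockout replicate 2), so each of the 4 calls was lost in at least 1 such fit. In the alternative activation list 1 of 27 members rose (3.7%), against 2.61% of all genes called higher. It was Pdcd1lg2 (PD-L2, a ligand of PD-1 that B-1 cells also carry), at 2.08 and 3.17 against 16.0 and 15.3 CPM (log2 2.57 ± 0.45, adjusted p = 0.00352). Arg1, the arginase of IL-4 activated macrophages, stood at 67.2 and 171 against 171 and 208 CPM (adjusted p = 0.288), and Mrc1, the mannose receptor, at 15.4 and 42.3 against 36.6 and 58.4 CPM (adjusted p = 0.415).

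**Figure D5:**
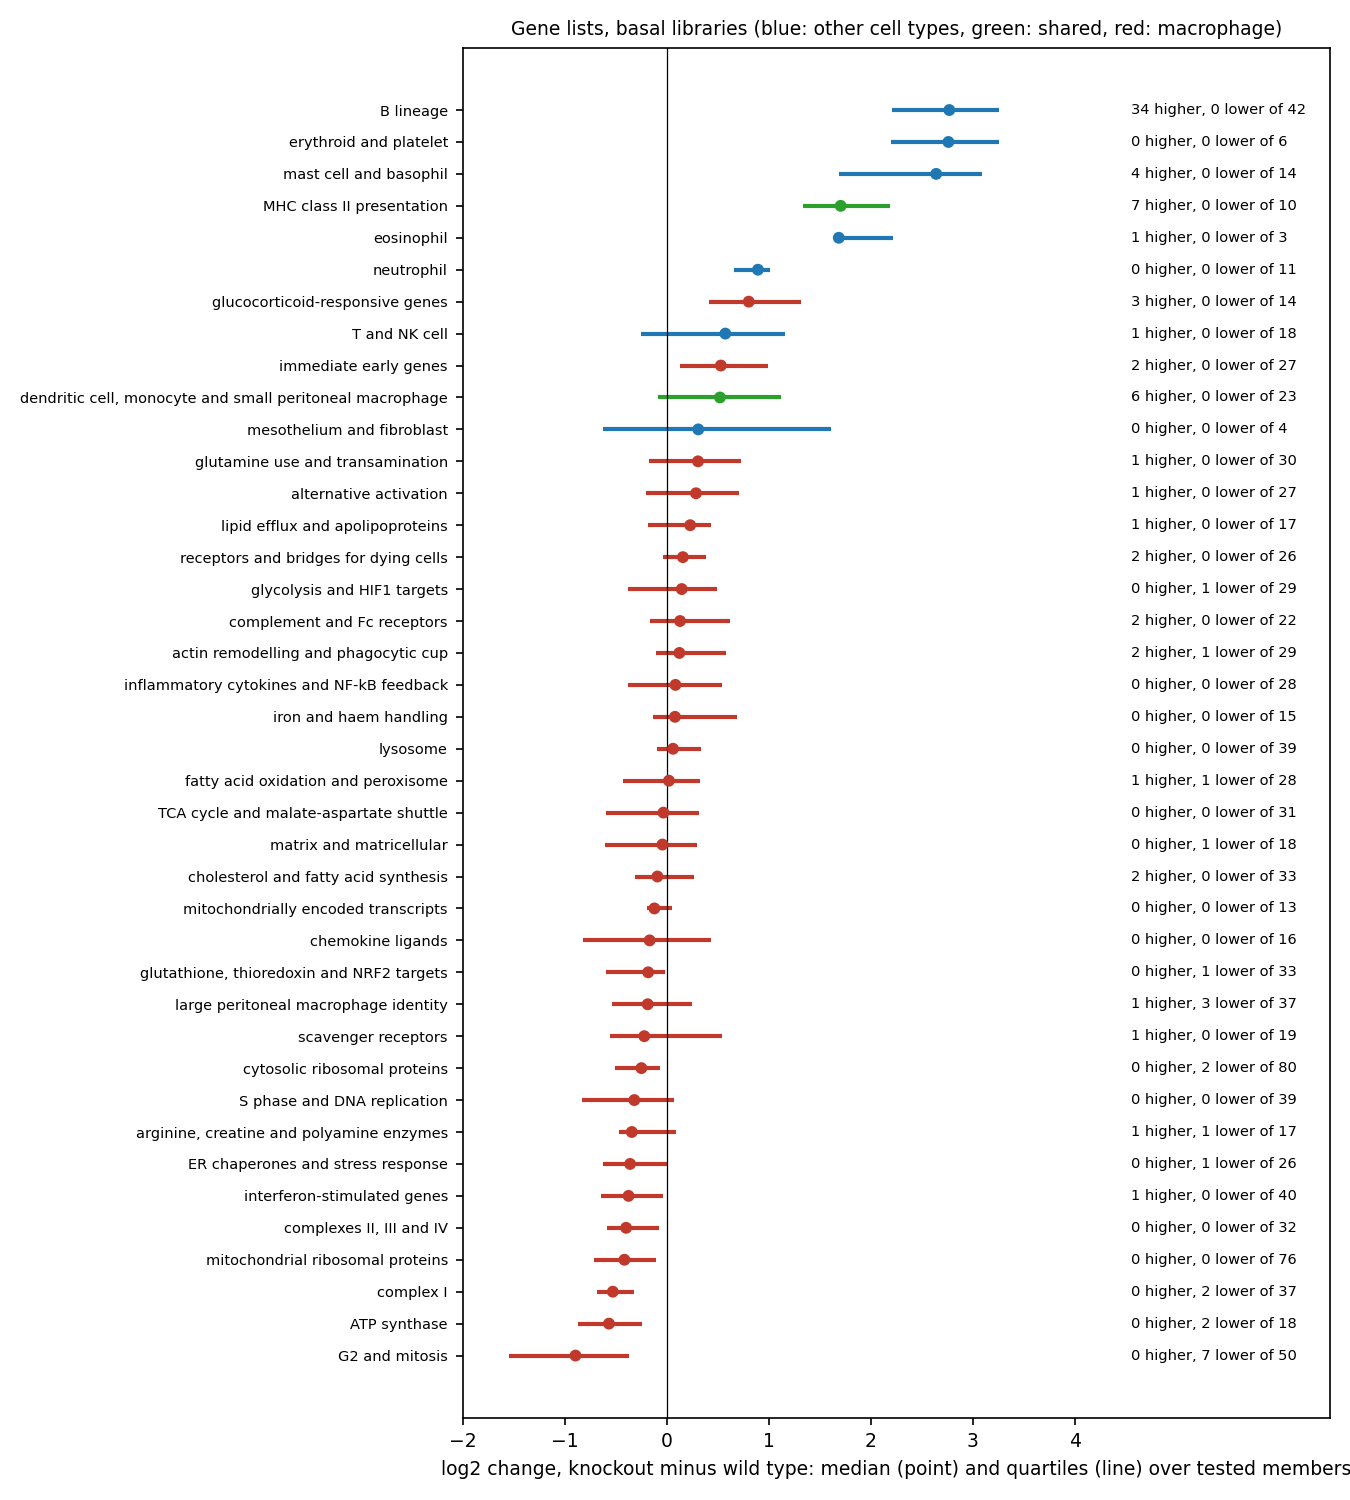
Median (point) and quartiles (line) of the log2 change, knockout minus wild type, over the tested members of each gene list, with the counts called higher and lower at the right and lists ordered by median. B lineage, erythroid and platelet, mast cell and MHC class II lists have the highest medians (2.77, 2.76, 2.64 and 1.71), and the G2 and mitosis list has the lowest (-0.89). None of the 6 erythroid and platelet genes was called. Hbb-bt, 1 of the 6, had 0 CPM in both wild-type libraries and 0.865 and 0.894 CPM in knockout.

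Genes of glutamine use gave 1 rise among 30 members (3.33%). Those of arginine use gave 1 rise and 1 fall among 17 (11.8%), where 4.14% of all genes were called. Slc1a5, the glutamine carrier ASCT2, stood at 11.8 and 13.5 CPM in wild type and at 23.9 and 35.1 CPM in knockout (log2 1.22 ± 0.31, adjusted p = 0.0368), and lost its call without any 1 of the 4 basal libraries (adjusted p = 0.291 without knockout replicate 2 and 0.0523 without knockout replicate 1, 0.149 and 0.126 without wild-type replicates 1 and 2). Slc38a2, another glutamine carrier, stood at 104 and 78.3 against 294 and 168 CPM (log2 1.34 ± 0.36, adjusted p = 0.0505). Glul, glutamine synthetase, stood at 677 and 685 against 904 and 1045 CPM (adjusted p = 0.366). Of the transaminases that pass on glutamate nitrogen, Got1 stood at 6.80 and 4.71 against 4.97 and 6.53 CPM (adjusted p = 0.999) and Got2 at 35.3 and 18.3 against 29.5 and 31.8 CPM (adjusted p = 0.826). On the arginine side, besides Gatm, Slc7a1, the carrier of arginine and lysine, stood at 17.6 and 17.3 against 34.9 and 48.2 CPM (log2 1.25 ± 0.29, adjusted p = 0.0243), and lost its call without knockout replicate 2 (adjusted p = 0.201), wild-type replicate 2 (0.126) or wild-type replicate 1 (0.0819).

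Nuclear-encoded genes of the respiratory chain leaned lower, with few calls. Of 37 complex I genes 2 fell, 34 had a fitted change below 0 and the median was -0.53. Over all genes tested, 5929 of 11614 were below 0 and 1.53% were called lower. Of 18 ATP synthase genes 2 fell and the median was -0.56, and of 32 genes of complexes II to IV none was called, with a median of -0.40. Ndufs4, a complex I subunit, stood at 217 and 540 CPM in wild type and at 98.7 and 85.3 CPM in knockout (log2 -2.04 ± 0.38, adjusted p = 0.00705). Atpif1, the inhibitor of ATP synthase, stood at 247 and 431 against 144 and 138 CPM (log2 -1.27 ± 0.29, adjusted p = 0.021), Atp5o, a stalk subunit, at 103 and 202 against 67.1 and 62.5 CPM (adjusted p = 0.0459), and Ndufa6 at 178 and 318 against 124 and 121 CPM (adjusted p = 0.0477). Wild-type replicate 2 was the highest basal library for each of these 4 genes. Without it the adjusted p was 0.0748 for Ndufs4, 0.239 for Atpif1, 0.459 for Atp5o and 0.48 for Ndufa6, and without knockout replicate 1 it was 0.0602, 0.122, 0.191 and 0.215. Without knockout replicate 2 it was 0.0866, 0.134, 0.223 and 0.222. Without wild-type replicate 1, in contrast, 6 complex I and 4 ATP synthase genes were called lower. Uqcrq, a complex III subunit, stood at 96.3 and 99.7 against 63.0 and 57.2 CPM (adjusted p = 0.115).

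None of 13 mitochondrially encoded transcripts was called (median -0.12, or 0.04 when scaled by library totals), and none of 31 genes of the TCA cycle and the malate-aspartate shuttle (median -0.03, or 0.12 with library totals). mt-Atp6 stood at 4360 and 6960 against 5822 and 9058 CPM (adjusted p = 0.506), and mt-Nd6, the gene on the other strand of the mitochondrial genome, at 63.6 and 61.1 against 13.2 and 16.7 CPM (adjusted p = 0.103). Me1, the cytosolic malic enzyme, stood at 3.31 and 3.25 against 0.216 and 0.805 CPM and did not pass (adjusted p = 0.0832).

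Protein synthesis genes also leaned lower. Among 80 cytosolic ribosomal protein genes 2 fell (2.5%), against 1.53% of all genes called lower. The fitted change was below 0 for 70 of them, against 5929 of the 11614 genes tested. The median of the 80 was -0.25, which was -0.09 with library totals and -0.08 without wild-type replicate 2. Their summed level was 63002 and 94218 CPM in wild type and 55584 and 59679 CPM in knockout, so wild-type replicate 2 stood apart. Rps3a1, a gene with many processed copies, stood at 1911 and 3372 against 1092 and 1193 CPM (adjusted p = 0.0154). Its call was lost without wild-type replicate 2 (adjusted p = 0.19), knockout replicate 1 (0.131) or knockout replicate 2 (0.0833). None of 76 mitochondrial ribosomal protein genes was called, with a median of -0.41 and 62 below 0. Among 26 genes of the endoplasmic reticulum 1 fell, Ddit3 (CHOP, a stress-induced factor), at 36.2 and 29.7 against 17.5 and 12.9 CPM (adjusted p = 0.0463), and its call was lost without any 1 of the 4 basal libraries (adjusted p = 0.301 and 0.11 without knockout replicates 2 and 1, 0.178 and 0.0855 without wild-type replicates 1 and 2).

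Mitosis genes fell in 7 of 50 tested members, against 1.53% of all genes called lower, with 0 rises. The fitted change was below 0 for 43 of the 50, against 5929 of the 11614 genes tested. The median was -0.89, which was -0.51 without knockout replicate 1 and -1.51 without knockout replicate 2. Spc25, a kinetochore subunit, stood at 21.2 and 28.0 CPM in wild type and at 8.0 and 7.42 CPM in knockout (log2 -1.67 ± 0.28, adjusted p = 0.00243). Its partner Spc24 stood at 7.65 and 6.59 against 1.19 and 2.95 CPM (log2 -1.75 ± 0.43, adjusted p = 0.0298). Cdk1, the kinase that starts mitosis, stood at 6.61 and 12.8 against 1.08 and 2.68 CPM (log2 -2.34 ± 0.47, adjusted p = 0.00906), and Nusap1, a spindle protein, at 15.9 and 19.4 against 0.865 and 5.10 CPM (log2 -2.53 ± 0.58, adjusted p = 0.0289). Knockout replicate 1 was the lowest of the 4 basal libraries for Spc24, Cdk1 and Nusap1. The count of 7 became 1 without knockout replicate 1 or without wild-type replicate 2, 5 without wild-type replicate 1 and 11 without knockout replicate 2. Spc25 kept its call in all 4 fits. Without knockout replicate 1 the adjusted p was 0.109 for Cdk1, 0.113 for Nusap1 and 0.245 for Spc24, and without wild-type replicate 2 it was 0.0875, 0.149 and 0.0691. Nusap1 (adjusted p = 0.0717) and Spc24 (0.0885) also lost their calls without wild-type replicate 1. In the IL-4 libraries Spc25 stood at 28.5 to 34.0 CPM in wild type and 42.1 to 48.8 CPM in knockout, above all 4 basal libraries. None of 39 S phase genes was called (median -0.32, or -0.12 and -0.59 without knockout replicates 1 and 2).

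The promoter of Cdk1 is shown because mitosis genes often carry the cell cycle element TTTGAA, which lay at 2 places in the 250 bases before its start (chr10:69352913-69353162, minus strand, RefSeq GRCm38.p6). The matches, in capitals, lie 71 and 15 bases before the start, 5′ to 3′.
Cdk1: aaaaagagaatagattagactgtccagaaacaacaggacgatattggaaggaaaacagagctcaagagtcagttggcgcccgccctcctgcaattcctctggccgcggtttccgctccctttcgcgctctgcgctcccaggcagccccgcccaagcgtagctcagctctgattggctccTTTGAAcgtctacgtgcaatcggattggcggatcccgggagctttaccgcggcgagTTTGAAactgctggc
Searched on both strands, the element was in 16 of 41 mitosis genes with a promoter (39.0%), in 2 of 6 called lower (33.3%) and in 18.3% of all 27025 promoters. Among the tested genes with a promoter the share was 12.9%. These counts describe the list and were not tested.

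Lipid genes moved in single members. The share called was 6.06% in cholesterol and fatty acid synthesis, 5.88% in lipid efflux and 7.14% in fatty acid oxidation. Over all genes it was 4.14%. In the list of cholesterol and fatty acid synthesis 2 of 33 members rose and the median was -0.09, or 0.05 with library totals. Scd1, the desaturase that makes oleate, stood at 5.29 and 7.11 CPM in wild type and at 62.2 and 80.4 CPM in knockout (log2 3.52 ± 0.38, adjusted p = 9.4e-05), and the 6 IL-4 libraries held 8.89 to 19.1 CPM. Pltp, a phospholipid transfer protein, was the only called gene of 17 in lipid efflux, at 376 and 272 against 906 and 670 CPM (log2 1.28 ± 0.25, adjusted p = 0.00715), and lost its call without knockout replicate 1 (adjusted p = 0.0955) or wild-type replicate 2 (0.0858). In fatty acid oxidation, besides Fabp5, the peroxisomal oxidase Acox3 rose from 8.69 and 11 to 20.9 and 25.4 CPM (adjusted p = 0.0268), a call lost without any 1 of the 4 basal libraries (adjusted p = 0.176 and 0.069 without knockout replicates 2 and 1, 0.137 and 0.0727 without wild-type replicates 1 and 2). Egln3, an oxygen-sensing hydroxylase that hypoxia induces, was the only called gene of 29 in glycolysis and HIF1 targets, at 21.5 and 15.8 against 5.08 and 5.55 CPM (log2 -1.81 ± 0.39, adjusted p = 0.0162), and lost its call without knockout replicate 1 (adjusted p = 0.124), knockout replicate 2 (0.0959) or wild-type replicate 1 (0.0847).

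Receptors for dying cells, the process the series title names, gave 2 rises among 26 members (7.69%). Of all genes, 2.61% were called higher and 4.14% in either direction. The median of the list was 0.16, which was 0.03 without wild-type replicate 2. Stab1, a scavenger receptor that binds phosphatidylserine, stood at 14.0 and 19.8 CPM in wild type and at 42.0 and 39.9 CPM in knockout (log2 1.28 ± 0.28, adjusted p = 0.0167), and Cd47, the signal that prevents uptake, at 497 and 428 against 781 and 868 CPM (log2 0.83 ± 0.22, adjusted p = 0.0421). The call of Stab1 was lost without wild-type replicate 1 (adjusted p = 0.111), knockout replicate 1 (0.0977) or knockout replicate 2 (0.0738), and that of Cd47 without any 1 of the 4 basal libraries (adjusted p = 0.247 and 0.074 without wild-type replicates 2 and 1, 0.224 and 0.131 without knockout replicates 2 and 1). Mertk, the receptor kinase of this process, stood at 299 and 293 against 356 and 451 CPM (adjusted p = 0.309), Axl, a related kinase, at 12.9 and 10.02 against 6.81 and 8.86 CPM (adjusted p = 0.447), and Cd36 at 245 and 236 against 279 and 259 CPM (adjusted p = 0.824). In the scavenger receptor list Stab1 was the only call among 19 (5.26%). Among 22 complement and Fc receptor genes 2 rose (9.09%). Cd55, which protects cells from complement, stood at 17.7 and 23.5 against 66.8 and 63.1 CPM (log2 1.66 ± 0.33, adjusted p = 0.00884). Fcgr2b, the inhibitory Fc receptor of macrophages and B cells, stood at 174 and 157 against 373 and 307 CPM (log2 1.04 ± 0.22, adjusted p = 0.0131). Cd55 lost its call without wild-type replicate 1 (adjusted p = 0.0635) or knockout replicate 1 (0.0508), and Fcgr2b without knockout replicate 1 (0.132) or wild-type replicate 2 (0.101). In the phagocytic cup and actin list 2 of 29 rose and 1 fell (10.3% called). Vav3, an exchange factor for small GTPases, stood at 87.3 and 114 against 38.1 and 44.2 CPM, Gsn (gelsolin) at 3.02 and 2.48 against 7.46 and 9.93 CPM and Fmnl1, a formin of blood cells, at 9.35 and 8.74 against 17.4 and 30.5 CPM. The highest adjusted p without 1 basal library was 0.247 for Vav3 (knockout replicate 1), 0.174 for Gsn (wild-type replicate 2) and 0.375 for Fmnl1 (knockout replicate 2).

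Redox and inflammatory genes gave single calls or none, where 4.14% of all genes were called. Among 33 glutathione, thioredoxin and NRF2 genes 1 fell, Sod1, the cytosolic superoxide dismutase, at 245 and 685 CPM in wild type and 173 and 194 CPM in knockout (log2 -1.34 ± 0.35, adjusted p = 0.0462). Wild-type replicate 2 was far above the other libraries, and the adjusted p was 0.615 without it, 0.256 without knockout replicate 1 and 0.183 without knockout replicate 2. Gclc and Gclm, the subunits of the enzyme that opens glutathione synthesis, stood at 56.1 and 37.2 against 53.7 and 58.9 CPM (adjusted p = 0.741) and at 70.4 and 66.6 against 55.0 and 58.8 CPM (adjusted p = 0.649). Among 40 interferon-stimulated genes 1 rose and the median was -0.37: Ly6a (Sca-1, a surface protein of lymphocytes and stem cells) stood at 5.29 and 11.3 against 58.3 and 85.3 CPM (log2 3.11 ± 0.37, adjusted p = 0.000165). None of 28 genes of inflammatory cytokines and NF-kB feedback was called (Socs3, a feedback inhibitor of cytokine signals, stood at 78.8 and 77.9 against 45.4 and 44.2 CPM, adjusted p = 0.0835), and none of 16 chemokine ligands (Ccl24, which draws in eosinophils, at 211 and 157 against 108 and 103 CPM, adjusted p = 0.0779). None of 15 iron and haem genes was called (Cd163, the haemoglobin scavenger receptor, at 4.16 and 6.34 against 10.9 and 11.5 CPM, adjusted p = 0.0809), and none of 39 lysosome genes (Ppt1, a lysosomal thioesterase, at 184 and 192 against 136 and 118 CPM, adjusted p = 0.234). In the matrix list Spp1 was the only called gene of 18. Of the nuclear-retained and RNA quality transcripts, Lars2 stood at 33.4 and 23.4 against 24.3 and 18.9 CPM (adjusted p = 0.494) and Snhg11 at 10.3 and 11.9 against 10.3 and 13.7 CPM (adjusted p = 0.94).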

How the data were processed

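Read counts per gene were deposited by the authors for 10 libraries. The submitters' processing notes name STAR, HTSeq and the mm10 build. Versions, the strand setting and the annotation are not given in the sources used here. Counts were used as deposited. Of 22165 identifiers, 420 had no symbol in GENCODE M21 (GRCm38) and 7409 were 0 in all libraries. Total counts were 8762403 to 15024073 per library.

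edgeR 4.0.16 (R 4.3.3) fitted 4 group means to all 10 libraries with TMM scaling, filterByExpr (minimum count 10, minimum total 15) and a robust quasi-likelihood, with 6 residual degrees of freedom and a biological coefficient of variation of 28.4%. Tests were two-sided. Calls needed p under 0.05 after Benjamini-Hochberg adjustment across the 11614 genes. Values after ± are standard errors (SE). The interaction is the knockout effect after IL-4 minus that without it. The test was checked on simulated data. Replicates of a group differed by more than sampling noise.

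Genes named were Lyz2, the 12 largest called rises and 12 largest falls at 10 CPM or more in the higher group and outside the other-cell and shared lists, the 12 largest rises within those, and up to 4 called members of each of 41 lists by smallest p (or 2 values where none was called). Of a list's named genes without a call, 1 or 2 are printed, and further list members are printed as values. Some genes that the rule names, and the gene that was deleted, are not reported here. Members, lists and rules were chosen with earlier results of these data known. Where leaving out a library left 1 in its group, the remaining one is assumed to vary like the other groups. DESeq2 1.42.0 served as an alternative. Python 3.11.15 and matplotlib 3.10.9 drew the figures, and promoters came from RefSeq tables (GRCm38.p6).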

Additional observations from a re-analysis of the deposited data

Results flagged for a closer look

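Of 114 genes that the naming rule gave, 62 had a genotype effect that differed between basal and IL-4 mice in a test of the interaction (the log2 change after IL-4 minus the basal one) by edgeR's quasi-likelihood, adjusted over all genes, of which 2.81% passed. Both effects use their own control libraries. The naming rule picks genes mostly by their basal change, which is also part of the interaction. The 62 of 114 are raised by that choice and cannot be read against the 2.81%. Given below are 29 of the 62 genes, from those with the largest basal rises or falls. Among genes that entered through a list, the interaction was -5.46 for Fkbp5, -3.80 for Scd1 and -3.53 for Ly6a. For Fkbp5 the direction turned, from 2.99 without IL-4 to -2.47 after it. After IL-4 Fkbp5 stood at 56.8 to 61.4 CPM in wild type and 9.37 to 12.2 CPM in knockout.

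Among the B lineage genes the interaction was -3.73 for Ebf1, -3.80 for Siglecg, -3.81 for Pax5, -3.94 for Cd22, -3.66 for Spib, -3.22 for Btla, -2.99 for Cxcr5, -3.51 for Fcmr, -4.29 for Fcrl5, -3.70 for Fcrla and -2.93 for Gpr174, with adjusted p between 7.19e-05 (Ebf1 and Siglecg) and 0.0419 (Gpr174). Their changes after IL-4 lay between -0.53 (Cd22) and 0.76 (Gpr174), against rises without IL-4.

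Among the other rises it was -4.92 for Tpm3-rs7, -5.05 for Edaradd, -4.50 for Kcna3, -4.42 for B3gnt5, -4.19 for Cacna1i, -3.59 for Rasgrp1, -3.41 for Zcchc18, -3.40 for Aff3 and -3.18 for Rpgrip1. The change after IL-4 was 0.34 for Tpm3-rs7, 0.01 for Edaradd and 0.00 for Rasgrp1.

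Among the falls it was 4.66 for Spp1, 4.53 for Eif3j2, 4.41 for Clec5a, 4.15 for Gatm, 3.45 for Nusap1, 3.35 for Fabp5, 3.21 for Cav1, 2.87 for Dnajb12 and 2.47 for Il11ra1. For Gatm the direction turned, from -2.87 without IL-4 to 1.29 after it (interaction adjusted p = 4.38e-05), and for Spp1 the change went from -4.68 to -0.02 (adjusted p = 0.00373).

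The B lineage sums also differed between the basal and IL-4 knockout libraries, and their part in the other interactions was not tested.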

How the results depend on the processing

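No named gene changed sign under any alternative. The total of 481 calls became 895 with DESeq2 (516 higher, 379 lower) and 1034 with no filter on low counts (454 higher, 580 lower), and calls lower in knockout became 110 when scaled by library totals. With the 4 basal libraries alone it was 378, with DESeq2's size factors 472 and with other-cell and class II genes left out of the scaling 480. Leaving out 1 library gave 208 to 550 calls, 174 to 341 of them higher and 32 to 217 lower: 208 and 222 without basal knockout replicates 1 and 2, and 408 and 270 without the first and the second basal wild-type replicate. The share of higher genes, 63.0%, was 84.6% and 78.4% in the former fits, 47.8% and 74.8% in the latter, 79.3% with library totals and 43.9% with no filter. With the replicate number as a block 387 genes were called. Same-numbered libraries did not deviate together (correlations of -0.03 between the basal libraries and -0.08 to 0.00 after IL-4). No pairing by number was seen, but so few pairs cannot exclude one. Of the 87 called named genes, 42 kept their call without each basal library. The cause of these shifts was not tested. Of the called genes, 292 higher and 168 lower ones were past 2-fold.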
